A study of Mus musculus with 12 samples.

Results

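The genes described here are 9 intrinsic regulators and effectors of axon regeneration, *Atf3*, *Sox11*, *Klf6*, *Klf7*, *Stat3*, *Socs3*, *Klf4*, *Gap43* and *Sprr1a*, taken by symbol from the 25238 genes of an RNA-seq count table of mouse cortex after stroke. All 9 were in the table. Of the 9, 8 had enough reads to be tested in each comparison, and *Sprr1a* did not.

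An adult neuron regrows a cut axon only where it can switch on a growth program. In peripheral neurons, which regenerate, axon injury induces the transcription factors *Atf3*, *Sox11*, *Klf6* and *Klf7*, activates *Stat3* downstream of cytokines of the interleukin 6 family, and leads to expression of growth effectors such as *Gap43*, a protein of the growth cone membrane, and *Sprr1a*, a small proline-rich protein that promotes neurite outgrowth. Central neurons mount a weaker program, and *Klf4*, which represses axon growth, and *Socs3*, the feedback inhibitor of cytokine signaling to *Stat3*, are known brakes on it. Several of these genes also work outside neurons: *Stat3* drives the reactive state of astrocytes, and *Atf3* and *Socs3* are induced in stressed and inflamed glia and in myeloid cells.

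The libraries came from 12 mice, 4 in each group, with 1 mouse per library, and all were labelled peri-infarct cortex. In the ISP group, mice with a transient middle cerebral artery occlusion (MCAo) received intracellular sigma peptide (ISP) at 1 μg/g/day, a peptide that binds PTPσ, the receptor through which chondroitin sulfate proteoglycans of the scar stop axons. In the Veh group, mice with the same occlusion received vehicle, 5% DMSO in saline, by the labels and the methods of the study, while its account of the sequencing results names a scrambled peptide instead, so which of them these mice received is not settled here. Both were treated for 14 days and the tissue was taken at 14 days post-stroke. The methods of the study give adult male C57BL/6J mice and small tissue punches, so each library held a mixture of neurons and glia. For the libraries labelled control, the sources used here give no surgery, treatment or day, so these libraries are compared under that label only. The comparison of ISP with Veh addresses whether the peptide moved these genes after stroke, and the comparison of Veh with control gives their level after stroke against a background of unstated handling.

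Total counts per library were 19325979 to 28685864 in ISP, 17442711 to 24706638 in Veh and 21322702 to 29845629 in control. Levels are given as CPM, read counts scaled to the library total after TMM normalization over the 12 libraries. ISP 14 and ISP 18 stood apart in a marker list that holds no member. The summed level of 10 reactive astrocyte markers (*Gfap*, *Vim*, *Lcn2* and others, all in the table) was 1775 CPM in ISP 14 and 2973 CPM in ISP 18. It was 378 to 639 CPM in the other ISP libraries, 191 to 791 CPM in Veh and 83.7 to 93.1 CPM in control. The highest Veh library was Veh 10. Neuron markers (10 of 10 in the table) summed to 10535 to 12980 CPM in ISP, 12178 to 13878 CPM in Veh and 13115 to 13495 CPM in control. Members' values that moved with ISP 14 and ISP 18 are given also without both, as are those of most list genes in ISP against Veh.

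The sequence upstream of the members was searched for letters that known factors bind. RefSeq start-site windows (GRCm38.p6, 250 bases before to 50 after the start) were found for 8 members, and for *Gap43* none was used here. The motifs were TTCNNNGAA, the STAT site, TGANTCA, the AP-1 site, and TGACGT, the core of the CRE bound by ATF and CREB factors, each on both strands. They occur in 8.298%, 7.808% and 7.513% of all 32851 windows, in that order, so a match in 1 of 8 windows is near the background share. *Atf3*, *Socs3* and *Sprr1a* each held a match, and the stretches before their start sites are printed because these are the windows that held one. The match is in capitals.
Atf3, chr1:191183334-191183583, minus strand: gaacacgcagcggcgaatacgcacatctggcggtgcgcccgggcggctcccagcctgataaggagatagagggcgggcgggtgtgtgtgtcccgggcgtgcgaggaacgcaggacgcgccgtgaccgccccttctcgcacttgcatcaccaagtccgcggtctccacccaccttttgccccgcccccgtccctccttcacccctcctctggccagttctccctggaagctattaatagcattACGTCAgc
Socs3, chr11:117969367-117969616, minus strand: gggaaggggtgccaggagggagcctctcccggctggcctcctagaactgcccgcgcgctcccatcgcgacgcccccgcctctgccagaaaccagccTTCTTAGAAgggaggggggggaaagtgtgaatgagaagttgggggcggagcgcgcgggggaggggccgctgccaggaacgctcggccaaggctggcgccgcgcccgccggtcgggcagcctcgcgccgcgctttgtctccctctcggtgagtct
Sprr1a, chr3:92485882-92486131, minus strand: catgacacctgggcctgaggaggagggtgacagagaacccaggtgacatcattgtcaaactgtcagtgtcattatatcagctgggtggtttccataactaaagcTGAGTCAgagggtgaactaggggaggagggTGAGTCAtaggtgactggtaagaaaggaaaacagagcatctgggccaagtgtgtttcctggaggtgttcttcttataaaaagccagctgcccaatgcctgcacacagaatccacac
In *Atf3* the CRE core lay on the opposite strand, its first printed base 8 bases before the start site. In *Socs3* the STAT letters began 154 bases before the start site. In *Sprr1a* the AP-1 letters appeared 2 times, beginning 146 and 116 bases before the start site. The windows of *Sox11*, *Klf4*, *Klf6*, *Klf7* and *Stat3* held none of the 3 motifs, which says only that these letters are not in those 300 bases. The printed stretches of *Atf3* and *Socs3* lie within the gene spans given below. The start sites used for these genes are therefore not the outermost annotated ones.

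In ISP against Veh, none of the 8 tested members passed the test (edgeR quasi-likelihood, Benjamini-Hochberg adjusted p under 0.1), and of all 15214 tested genes 0 passed (0%). At an unadjusted p under 0.05 there were 3 members, *Stat3*, *Atf3* and *Sox11*, all higher in ISP, where 15.3% of all tested genes had one (7.87% higher and 7.47% lower). DESeq2 called 1 member, *Stat3*, beside 2.66% of all genes (405), and limma-voom called none of either. In Veh against control, 1 of 8 members passed and was higher in Veh, *Atf3*, where 2.23% of 15126 genes passed (1.03% higher and 1.20% lower), and 2 members had an unadjusted p under 0.05, as did 16.3% of all genes. DESeq2 called 1 member there and 7.49% of all genes. In ISP against control, 3 of 8 passed, *Atf3*, *Stat3* and *Socs3*, all higher in ISP, where 10.2% of 15232 genes passed (6.74% higher and 3.42% lower). DESeq2 called 3 members there and 14.7% of all genes. The 3 comparisons share libraries with each other, so they are not independent. In bulk tissue, fewer cells of a type and less RNA per cell cannot be told apart.

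**Figure D1:**
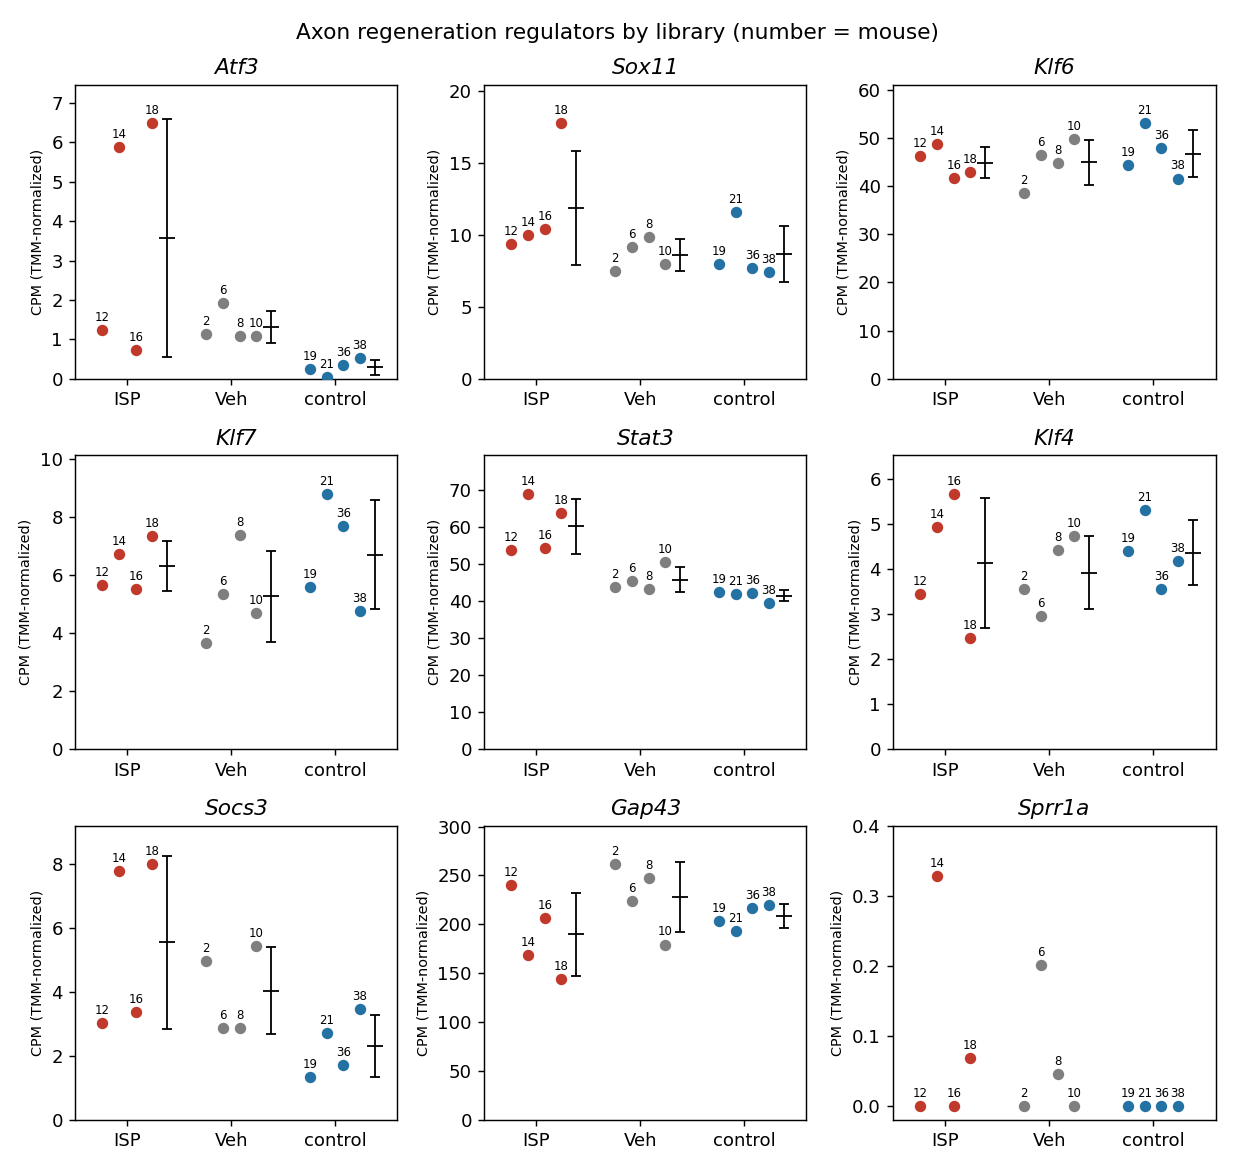
Level of each of the 9 genes (y axis, TMM-normalized CPM) in each library, grouped as ISP, Veh and control, with the mouse number above each point and the mean and SD beside each group of 4 (not drawn for *Sprr1a*, which had 0 to 8 reads per library). *Atf3* and *Socs3* are high in ISP 14 and ISP 18, *Stat3* is higher in all 4 ISP libraries than in any other library, and *Klf6* spans 38.7 to 53.1 CPM without separating the groups.

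*Atf3* (ENSMUSG00000026628.13, GRCm38 chromosome 1, 191170296 to 191218039, minus strand), the stress-induced partner of Jun in axotomized neurons, had 1.23, 5.88, 0.722 and 6.49 CPM in ISP 12, 14, 16 and 18. It had 1.12, 1.92, 1.09 and 1.08 CPM in Veh 2, 6, 8 and 10, and 0.242, 0.0425, 0.340 and 0.522 CPM in control 19, 21, 36 and 38. Every Veh library lay above every control library, while ISP 14 and ISP 18 lay above all other libraries and ISP 12 and ISP 16 fell among or below the Veh ones. These levels rest on few reads, 19 to 48 per Veh library and 1 to 11 per control library. *Atf3* rose in Veh against control by 2.21 on the log2 scale (SE 0.54), 4.61-fold (adjusted p = 0.0890, edgeR), and an exact two-sided permutation test of 4 libraries against 4 gave p = 0.0286, the smallest it can give. It was 1 of 2 members whose Veh and control values did not overlap with Veh higher, as in 4.11% of all tested genes. The call was lost when any single one of the 8 libraries was left out (adjusted p = 0.121 to 0.207 with log2 fold changes of 1.85 to 2.62), and with all 12 libraries in 1 fit the adjusted p was 0.182.

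In ISP against Veh the log2 fold change of *Atf3* was 1.46 (SE 0.62, adjusted p = 0.306, edgeR), from means of 3.58 ± 3.02 CPM in ISP and 1.31 ± 0.413 CPM in Veh (SD, n = 4 each). Without ISP 14 and ISP 18 it was -0.42 (SE 0.52, adjusted p = 0.832). In ISP against control it rose by 3.66 (SE 0.77, adjusted p = 0.0286), with no overlap, and without ISP 14 and ISP 18 that value was 1.77 (adjusted p = 0.443). ISP 14 and ISP 18 were also the libraries highest in the reactive astrocyte list and in the microglia list (8 of 8 markers in the table, 441 to 1376 CPM in ISP, 383 to 655 CPM in Veh and 290 to 356 CPM in control). Within Veh, Veh 10 had the most reactive astrocyte and microglia marker RNA. Its *Atf3*, 1.08 CPM from 23 reads, was near that of Veh 2 (1.12 CPM, 19 reads) and Veh 8 (1.09 CPM, 24 reads). The part of these cells in the *Atf3* difference was not tested.

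*Sox11* (chromosome 12, 27334264 to 27342574), a factor of developing neurons and neuroblasts that drives growth genes after peripheral injury, had 9.35, 9.99, 10.4 and 17.8 CPM in ISP 12, 14, 16 and 18. Levels were 7.46, 9.14, 9.85 and 7.98 CPM in Veh 2, 6, 8 and 10, and 7.97, 11.6, 7.73 and 7.40 CPM in control 19, 21, 36 and 38. The groups overlapped, and ISP 18 alone lay clearly above the others. The log2 fold change was 0.47 in ISP against Veh (SE 0.21, adjusted p = 0.324), 0.01 in Veh against control (SE 0.17, adjusted p = 0.991) and 0.46 in ISP against control (SE 0.23, adjusted p = 0.255), all by edgeR. The exact permutation test of ISP against Veh gave p = 0.0571. With ISP 14 and ISP 18 both left out it was 0.20 on the log2 scale in ISP against Veh (adjusted p = 0.771) and 0.20 in ISP against control (adjusted p = 0.774). ISP 18 also had the highest summed level of the 5 neuroblast markers (*Dcx*, *Igfbpl1*, *Sox4*, *Cd24a* and *Tubb2b*), 169 CPM, where the other ISP libraries had 106.5 to 134 CPM, Veh had 128 to 143 CPM and control had 125 to 136 CPM. Control 21, second in *Sox11*, had 130 CPM of these markers, within the control range. ISP 18 was also the highest library in oligodendrocyte markers (11188 CPM) and in reactive astrocyte markers (2973 CPM). Whether any of these cells carried the *Sox11* value was not tested.

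*Klf6* and *Klf7* are Krüppel-like factors that promote axon growth. *Klf6* (chromosome 13, 5861482 to 5870394) had 46.4, 48.7, 41.7 and 43.0 CPM in ISP 12, 14, 16 and 18, with 38.7, 46.6, 44.8 and 49.9 CPM in Veh 2, 6, 8 and 10 and 44.5, 53.1, 47.9 and 41.6 CPM in control 19, 21, 36 and 38. The groups overlapped, and the 95% interval of its log2 fold change (from the SE and the degrees of freedom of the edgeR fit) was -0.21 to 0.20 in ISP against Veh and -0.27 to 0.18 in Veh against control. *Klf7* (chromosome 1, 64029447 to 64122282) had 5.65, 6.74, 5.53 and 7.33 CPM in ISP 12, 14, 16 and 18. It had 3.67, 5.33, 7.39 and 4.69 CPM in Veh 2, 6, 8 and 10, and 5.58, 8.80, 7.69 and 4.75 CPM in control 19, 21, 36 and 38. The *Klf7* groups overlapped in each comparison, with log2 fold changes of 0.26 (95% interval -0.24 to 0.77) in ISP against Veh, which was 0.09 without ISP 14 and ISP 18, and -0.33 (-0.87 to 0.21) in Veh against control. Exons of *Klf7* overlap those of the antisense gene Gm13748 and the noncoding gene Gm26649, and how reads from the overlap were counted was not examined.

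*Stat3* (chromosome 11, 100885098 to 100939540, minus strand), the transcription factor that interleukin 6 family cytokines activate, had 53.8, 69.1, 54.4 and 63.8 CPM in ISP 12, 14, 16 and 18. Its levels were 43.8, 45.5, 43.4 and 50.6 CPM in Veh 2, 6, 8 and 10, and 42.6, 42.0, 42.2 and 39.4 CPM in control 19, 21, 36 and 38. All 4 ISP libraries lay above all 4 Veh libraries, and all 4 Veh libraries above all 4 control libraries. *Stat3* was the 1 member with no overlap between ISP and Veh, a separation with ISP higher that 2.74% of all tested genes had. Means were 60.3 ± 7.45 CPM in ISP, 45.8 ± 3.30 CPM in Veh and 41.6 ± 1.44 CPM in control (SD, n = 4 each). In ISP against Veh the log2 fold change was 0.40 (SE 0.10, 1.32-fold, 95% interval 0.18 to 0.61), with an unadjusted p of 0.00196, rank 99 of the 15214 genes, an adjusted p of 0.261 in edgeR, 0.231 in limma-voom and 0.0462 in DESeq2. The exact permutation p was 0.0286, the smallest possible. Without ISP 14 and ISP 18 the difference was 0.24 (SE 0.10, adjusted p = 0.623).

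*Stat3* rose in ISP against control by 0.54 (SE 0.10, 1.45-fold, adjusted p = 0.0208), a call that held in 15 of 16 alternatives and was lost without ISP 14 and ISP 18 (0.39, adjusted p = 0.184). In Veh against control the log2 fold change was 0.15 (SE 0.08, adjusted p = 0.387), although the libraries did not overlap (exact permutation p = 0.0286). Within ISP, the libraries with the higher *Stat3* were ISP 14 and ISP 18, and within Veh it was Veh 10, each time the libraries with the most reactive astrocyte marker RNA. In ISP 12 and ISP 16 that list stood at -0.05 and -0.13 relative to the mean of the 12 libraries. Both lay above Veh 2, 6 and 8 (-0.29, -0.16 and -0.49) and below Veh 10 (0.58). *Stat3* in ISP 12 and ISP 16 was above every Veh library. ISP 14, ISP 18 and Veh 10 also had the most microglia marker RNA of their groups (1376, 1284 and 655 CPM). *Stat3* and the microglia list were higher in ISP 14 than in ISP 18, and the reactive astrocyte list was lower. The part of reactive astrocytes or of microglia in the *Stat3* difference was not tested. Exons of *Stat3* overlap those of *Stat5a* on the other strand. *Stat5a* averaged 2.68 CPM in ISP and 2.09 CPM in Veh, with a log2 fold change of 0.36 (SE 0.42). How reads from that overlap were counted was not examined.

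*Socs3* (chromosome 11, 117966079 to 117970047, minus strand), which binds the interleukin 6 receptor complex and ends the signal to Stat3, had 3.03, 7.81, 3.37 and 8.01 CPM in ISP 12, 14, 16 and 18. It had 4.97, 2.89, 2.87 and 5.45 CPM in Veh 2, 6, 8 and 10, and 1.35, 2.72, 1.70 and 3.46 CPM in control 19, 21, 36 and 38. ISP 14 and ISP 18 were high, and ISP 12 and ISP 16 lay among the Veh and control libraries. *Socs3* rose in ISP against control by 1.28 (SE 0.40, 2.43-fold, adjusted p = 0.0854), while the exact permutation test gave p = 0.0857 with overlapping groups. That call held in 8 of 16 alternatives. It was lost without ISP 14 (1.08, adjusted p = 0.224), without ISP 18 (1.05, adjusted p = 0.219), without any single control library (adjusted p = 0.109 to 0.188), without both ISP libraries (0.49, adjusted p = 0.694) and with limma-voom (1.20, adjusted p = 0.104). The log2 fold change was 0.47 (SE 0.37, adjusted p = 0.559) in ISP against Veh, with -0.33 (adjusted p = 0.798) when ISP 14 and ISP 18 were left out, and 0.82 (SE 0.34, adjusted p = 0.252) in Veh against control.

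*Klf4* (chromosome 4, 55527143 to 55532466), the Krüppel-like factor that holds back axon growth in retinal and cortical neurons, had 3.44, 4.93, 5.68 and 2.47 CPM in ISP 12, 14, 16 and 18. Levels of 3.55, 2.97, 4.43 and 4.74 CPM were found in Veh 2, 6, 8 and 10, and of 4.40, 5.32, 3.57 and 4.18 CPM in control 19, 21, 36 and 38. The groups overlapped throughout. The 95% interval of the log2 fold change was -0.57 to 0.72 in ISP against Veh and -0.62 to 0.34 in Veh against control, wide enough to hold changes of the size *Stat3* had.

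*Gap43* (chromosome 16, 42248442 to 42340651), the most abundant member, had 240.4, 169, 206 and 144 CPM in ISP 12, 14, 16 and 18. It had 262, 224, 247 and 179 CPM in Veh 2, 6, 8 and 10, and 203, 194, 217 and 219.9 CPM in control 19, 21, 36 and 38. The 3 lowest libraries were ISP 18, ISP 14 and Veh 10, which are the 3 highest in the reactive astrocyte, microglia and activated microglia lists. Neuron marker RNA was lowest in ISP 18 (10535 CPM) and ISP 14 (11571 CPM). Next came Veh 6 (12178 CPM), where *Gap43* was 224 CPM, while Veh 10 had 12896 CPM of neuron marker RNA. The log2 fold change was -0.26 (SE 0.16, 95% interval -0.61 to 0.08, adjusted p = 0.436) in ISP against Veh, and -0.03 (adjusted p = 0.969) without ISP 14 and ISP 18. It was 0.14 (SE 0.10, adjusted p = 0.547) in Veh against control and -0.13 (SE 0.13, adjusted p = 0.607) in ISP against control. What share of the *Gap43* values follows the share of neurons was not tested.

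*Sprr1a* (chromosome 3, 92483952 to 92485895), which peripheral neurons switch on from near silence after axotomy, had 0, 8, 0 and 2 reads in ISP 12, 14, 16 and 18. It had 0, 5, 1 and 0 reads in Veh 2, 6, 8 and 10, and none in the 4 control libraries. Pooled over each group this is 0.106 CPM in ISP (exact Poisson 95% interval 0.0509 to 0.195), 0.0705 CPM in Veh (0.0259 to 0.154), and 0 in control, with an interval by the same method of up to 0.0380 CPM (0.0309 CPM at 3 reads over the group). The intervals cover counting error only, and those of ISP and Veh overlap. The gene was left out of all tests by the filter on low counts.

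Per kilobase of merged exon, *Gap43*, *Klf6* and *Stat3* stood above the other tested members. Merged exon length counts every annotated exon of a gene (9527 bases for *Stat3*, 4391 for *Klf6*). It can exceed the length of 1 transcript, so the order between genes depends on the annotation. *Gap43* was highest with 125, 149.6 and 137 CPM per kb in ISP, Veh and control, followed by *Klf6* (10.2, 10.2 and 10.7) and *Stat3* (6.33, 4.81 and 4.36). The remaining tested members lay between 0.133 CPM per kb (*Atf3* in control) and 1.92 CPM per kb (*Socs3* in ISP). In control *Atf3* was the lowest of the 8 tested members, and in ISP it stood above *Sox11*, *Klf4* and *Klf7*, although the SD of *Atf3* in ISP, 1.40 CPM per kb, was larger than its distance to each of them.

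**Figure D2:**
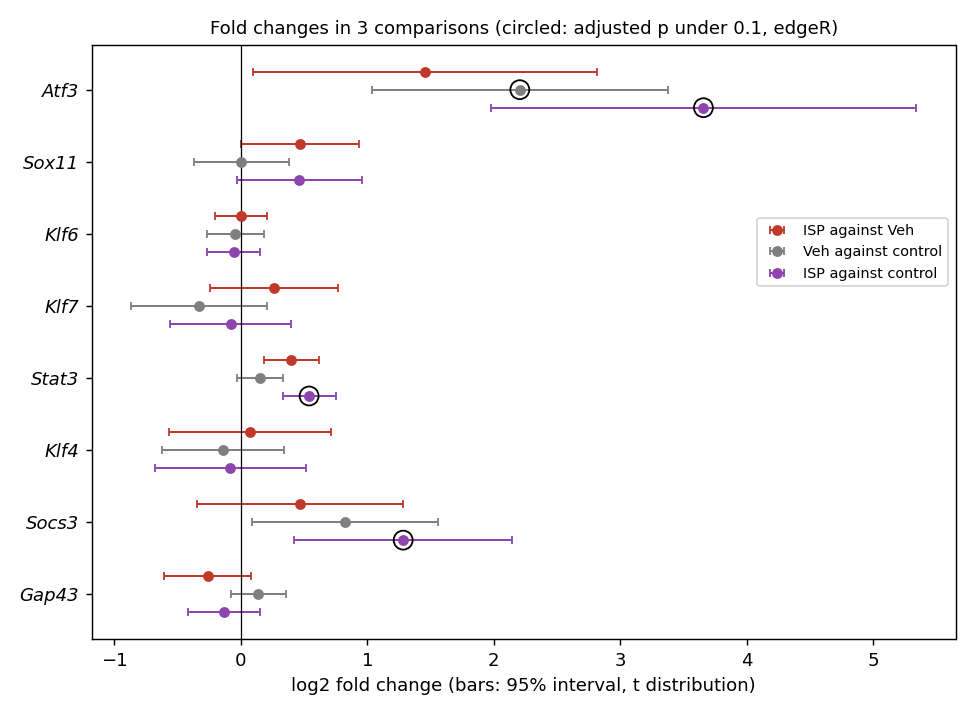
Log2 fold change (x axis) of each of the 8 tested genes in ISP against Veh, Veh against control and ISP against control, with 95% intervals (from the standard error and the degrees of freedom of the edgeR fit), and circles around values with an edgeR adjusted p under 0.1. Circles surround *Atf3* in both comparisons with control and *Stat3* and *Socs3* in ISP against control, and no value of ISP against Veh.

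The median log2 fold change over the 8 tested members was 0.33 in ISP against Veh, where the median of all tested genes was 0.02. It was 0.07 in Veh against control (all genes 0.02) and 0.20 in ISP against control (all genes -0.01). In ISP against Veh 6 members were positive and 2 negative, in Veh against control 5 and 3, and in ISP against control 4 and 4. Without ISP 14 and ISP 18, *Atf3* (-0.42) and *Socs3* (-0.33) turned negative in ISP against Veh, and no member exceeded the 0.24 of *Stat3*. The members hold promoters of axon growth and the brakes *Klf4* and *Socs3*, so their median does not measure a shift of the growth program. ISP 18 was the highest of the 12 libraries for 3 members and the lowest for 2, and control 21 was the highest for 2 and among the top 2 for 4.

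**Figure D3:**
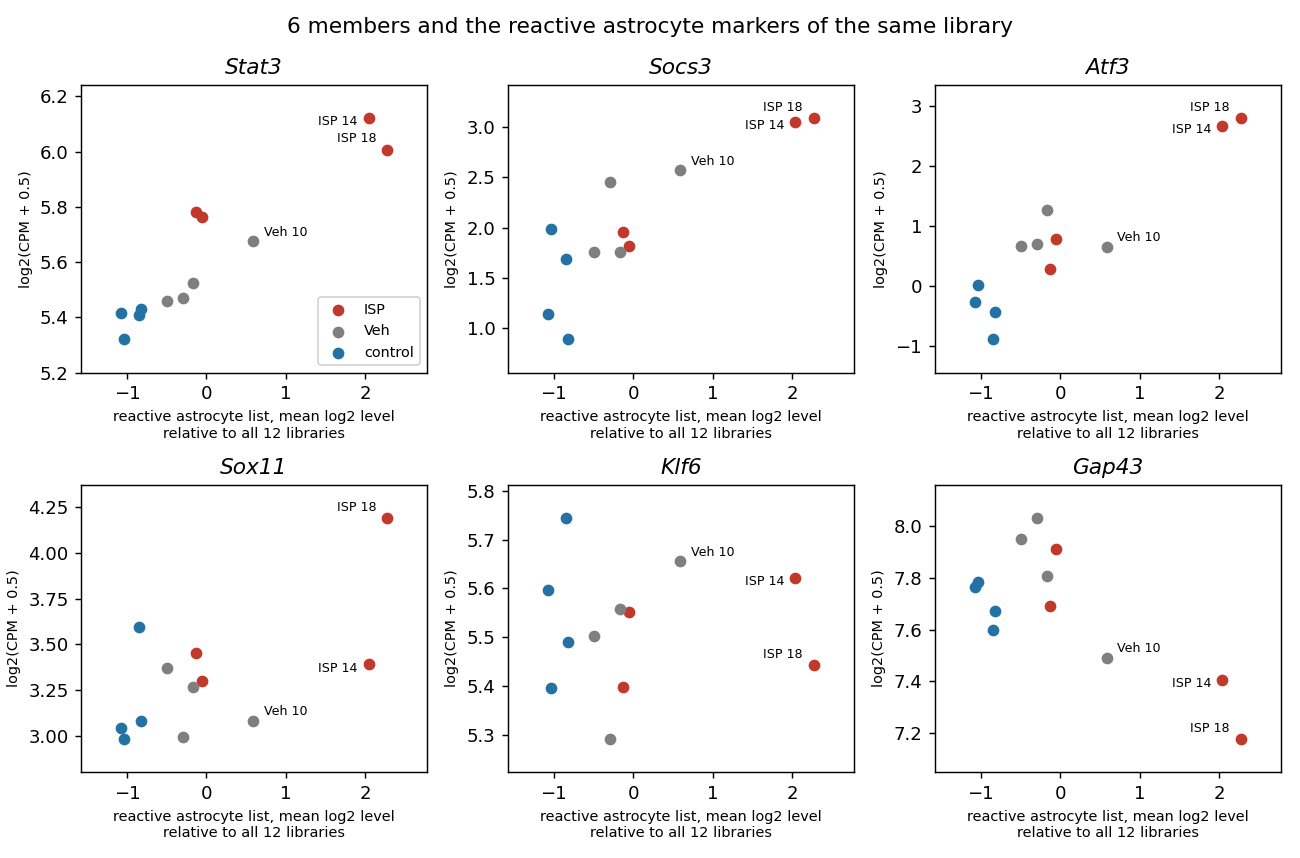
Level of 6 genes (y axis, log2(CPM + 0.5)) against the mean log2 level of the 10 reactive astrocyte markers in the same library relative to all 12 libraries (x axis), with ISP, Veh and control in separate colours. *Stat3*, *Socs3* and *Atf3* are high in ISP 14 and ISP 18, where the list is at 2.04 and 2.27, *Gap43* is low there and in Veh 10, and *Klf6* shows no order along the axis.

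The cytokine pathway around *Stat3* was read through 4 lists. List counts here and below stand beside the shares over all tested genes. In ISP against Veh 15.3% had an unadjusted p under 0.05 and DESeq2 called 2.66%. In Veh against control these were 16.3% and 7.49%, and 2.23% passed by edgeR. In ISP against control 10.2% passed by edgeR. Of the 14 tested ligands, receptors and kinases upstream of it, 0 passed in ISP against Veh by edgeR and 0 by DESeq2, with 3 higher and 0 lower at an unadjusted p under 0.05 and a median of 0.16. *Il6ra*, the receptor of interleukin 6, had 7.17 ± 2.83 CPM in ISP and 3.95 ± 1.21 CPM in Veh (log2 fold change 0.86, SE 0.32, adjusted p = 0.277, and 0.28 without ISP 14 and ISP 18), and *Osmr*, the oncostatin M receptor that reactive astrocytes carry, had 7.32 ± 5.64 CPM in ISP and 3.35 ± 1.48 CPM in Veh (1.14, SE 0.56, adjusted p = 0.351, and -0.45 without ISP 14 and ISP 18). The ligand *Ctf1* had 1.64 ± 0.662 CPM in Veh and 0.800 ± 0.294 CPM in control (1.05, SE 0.42, adjusted p = 0.231), and *Lifr*, the receptor for leukemia inhibitory factor, 33.9 ± 4.32 CPM in Veh and 43.0 ± 3.77 CPM in control (-0.33, SE 0.11, adjusted p = 0.158). In ISP against control 4 of 16 passed: *Il10ra* (1.58, SE 0.34), *Osmr* (1.67, SE 0.53) and *Il6ra* (0.84, SE 0.26) rose and *Lifr* fell by 0.40 (SE 0.09). Calls of list genes in ISP against control were not repeated gene by gene without ISP 14 and ISP 18, and over all genes 90 calls were made without both, against 1547 with them.

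The other STAT factors were all on the positive side in ISP against Veh (6 of 6, median 0.40). None passed by edgeR, 3 had an unadjusted p under 0.05, and DESeq2 called 1, *Stat2*. *Stat2*, which carries the interferon signal, had 36.2 ± 9.01 CPM in ISP and 24.6 ± 2.92 CPM in Veh (log2 fold change 0.56, SE 0.16, adjusted p = 0.261, and 0.22 without ISP 14 and ISP 18), and *Stat6*, which carries the interleukin 4 signal, 23.9 ± 4.19 CPM in ISP and 17.6 ± 2.27 CPM in Veh (0.44, SE 0.15, adjusted p = 0.266, and 0.25 without both). In Veh against control the same list had a median of -0.02 and no call, with no unadjusted p under 0.05 and none by DESeq2.

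Among the 15 other inhibitors of cytokine signaling, 4 had an unadjusted p under 0.05 in ISP against Veh, all higher, and none passed by edgeR or DESeq2. *Socs6*, a relative of *Socs3*, had 15.8 ± 2.57 CPM in ISP and 11.2 ± 1.24 CPM in Veh (0.49, SE 0.15, adjusted p = 0.263, and 0.27 without ISP 14 and ISP 18), and *Ptpn6*, a phosphatase of blood and microglial cells, 16.2 ± 11.7 CPM in ISP and 5.76 ± 2.92 CPM in Veh (1.49, SE 0.52, adjusted p = 0.272, and 0.07 without ISP 14 and ISP 18). Of the 15, 1 passed in Veh against control: *Socs4* fell by 1.18 (SE 0.30, adjusted p = 0.0961), with 1.48 ± 0.461 CPM in Veh and 3.42 ± 0.910 CPM in control, and that call held in 5 of 15 alternatives. It was lost without Veh 2, 8 or 10 and without any 1 control library (log2 fold change -1.26 to -0.98, adjusted p = 0.101 to 0.264), and also with limma-voom (adjusted p = 0.106), with all 12 libraries in 1 fit (0.138) and with the offset for GC content and length (0.118). All 12 Stat3 target genes tested were on the positive side in ISP against Veh (median 0.76), 5 with an unadjusted p under 0.05, none called by edgeR and 2 by DESeq2. The mean log2 level of the list relative to the 12 libraries was 1.26 in ISP 14 and 1.16 in ISP 18, while ISP 12 (-0.20) and ISP 16 (-0.04) lay within the Veh libraries (-0.35 to 0.21). *Cebpd* had 9.60 ± 6.18 CPM in ISP and 3.23 ± 0.324 CPM in Veh (1.58, SE 0.40, adjusted p = 0.261, DESeq2 0.0161), *Serpina3n* 132 ± 103 CPM in ISP and 32.6 ± 4.91 CPM in Veh (2.02, SE 0.51, adjusted p = 0.261), and *Lcn2* 6.90 ± 7.86 CPM in ISP and 0.677 ± 0.964 CPM in Veh (3.35, SE 1.29, adjusted p = 0.282). Without ISP 14 and ISP 18 the log2 fold changes were 0.51 for *Cebpd* (adjusted p = 0.660), 0.41 for *Serpina3n* (adjusted p = 0.623) and -1.08 for *Lcn2* (adjusted p = 0.821). *Lcn2*, *Serpina3n* and *Timp1* stand in the reactive astrocyte list too, as do *Osmr* and *Cd44* of the other lists.

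Of 12 other Krüppel-like factors tested, none passed in ISP against Veh by edgeR and 1 by DESeq2, with 3 higher and 1 lower at an unadjusted p under 0.05 (median 0.10). *Klf9*, which like *Klf4* represses axon growth, had 227 ± 11.7 CPM in ISP, 194 ± 21.4 CPM in Veh and 243 ± 32.3 CPM in control, with log2 fold changes of 0.22 in ISP against Veh (SE 0.09, adjusted p = 0.283) and -0.31 in Veh against control (SE 0.10, adjusted p = 0.164). *Klf16* had 42.3 ± 4.55 CPM in ISP and 58.5 ± 10.2 CPM in Veh (-0.47, SE 0.12, adjusted p = 0.261, DESeq2 0.0515). *Klf10* had 33.3 ± 4.66 CPM in Veh and 57.7 ± 18.6 CPM in control (-0.78, SE 0.21, adjusted p = 0.103), and DESeq2 called it lower in Veh (adjusted p = 0.00815). Of the 12, 2 passed in ISP against control, *Klf12* and *Klf16*, which fell by 0.53 (SE 0.12) and 0.31 (SE 0.10). Of all tested genes 3.42% passed there and were lower.

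Of the 8 other SOX factors, none passed in ISP against Veh by edgeR, and DESeq2 called 1. This was *Sox8*, a factor of the oligodendrocyte and astrocyte lineage, with 49.2 ± 8.88 CPM in ISP and 35.5 ± 3.41 CPM in Veh (0.47, SE 0.13, adjusted p = 0.261, DESeq2 0.0588, and 0.33 without ISP 14 and ISP 18). Of the 8, 3 passed in ISP against control, all glial or progenitor factors and all higher in ISP: *Sox10* by 0.70 (SE 0.19), *Sox9* by 0.52 (SE 0.15) and *Sox2* by 0.49 (SE 0.10). Of all tested genes 6.74% passed there and were higher. Oligodendrocyte markers (6 of 6 in the table, *Mbp* and others) summed to 4666 to 11188 CPM in ISP, 2780 to 6956 CPM in Veh and 3273 to 4922 CPM in control, highest in ISP 18. All 6 were positive in ISP against Veh (median 0.69, none called by edgeR or DESeq2, 4 with an unadjusted p under 0.05), and 5 of 6 passed in ISP against control, all higher in ISP. The part of oligodendrocytes in the *Sox8* and *Sox10* values was not tested. *Sox4*, a close relative of *Sox11*, had 26.2 ± 4.65 CPM in ISP and 25.7 ± 3.65 CPM in Veh (0.03, SE 0.14). Among 16 AP-1 and ATF or CREB factors tested, none passed in ISP against Veh by edgeR or DESeq2, with 1 higher and 1 lower at an unadjusted p under 0.05. *Jun*, the dimer partner of Atf3 in regenerating neurons, had 71.2 ± 12.7 CPM in ISP, 62.2 ± 10.8 CPM in Veh and 43.8 ± 8.09 CPM in control. It rose in ISP against control by 0.71 (SE 0.15, adjusted p = 0.0296), and in Veh against control its log2 fold change was 0.52 (SE 0.15, adjusted p = 0.113, DESeq2 0.0254). The list as a whole lay on the other side in Veh against control, with 11 of 16 negative, a median of -0.12, and 1 higher and 4 lower at an unadjusted p under 0.05, none of them passing by edgeR. *Fos*, the immediate early partner of Jun, had 15.4 ± 5.48 CPM in Veh and 30.2 ± 15.1 CPM in control (-0.97, SE 0.34, adjusted p = 0.180), and the others were *Atf2* (-0.23), *Atf6* (-0.20) and *Fosl2* (-0.42).

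**Figure D4:**
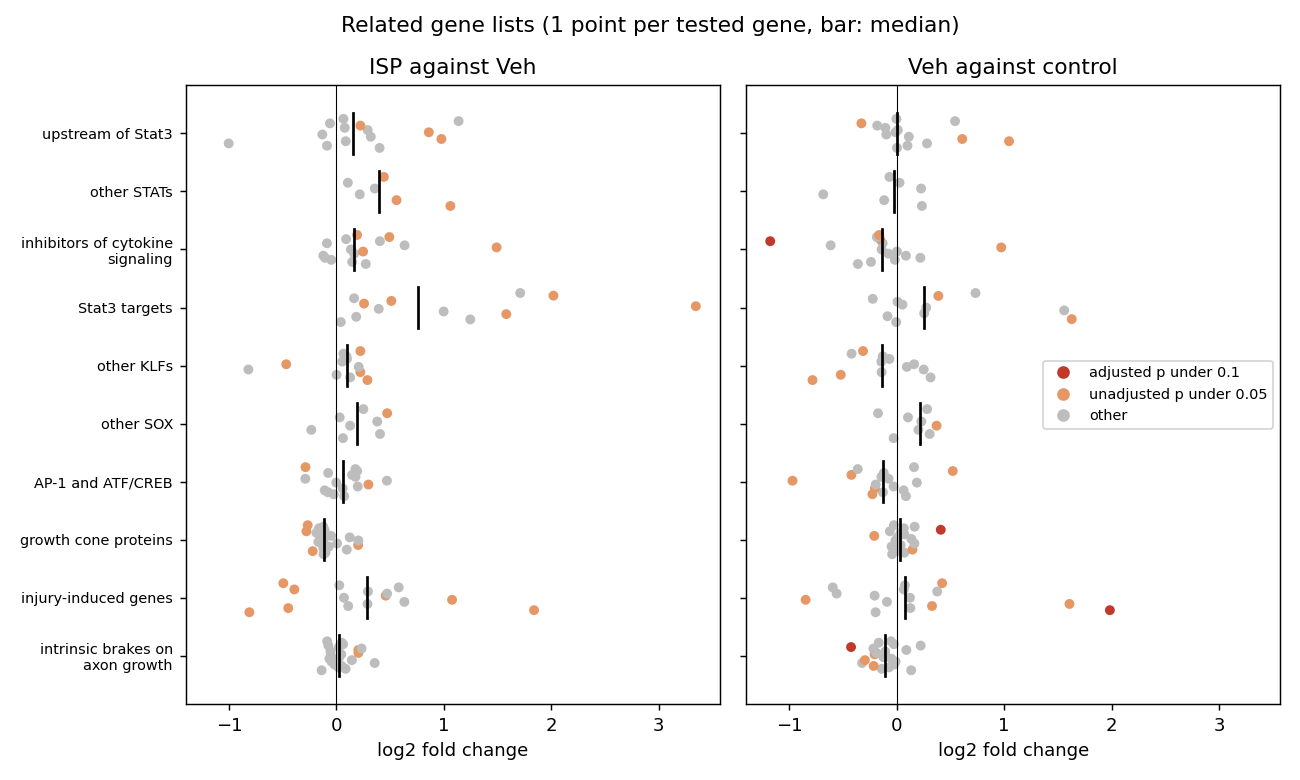
Log2 fold change (x axis) of every tested gene of 10 related lists in ISP against Veh (left) and Veh against control (right), with a bar at each list's median and colour for adjusted and unadjusted p from edgeR. In ISP against Veh no gene has an adjusted p under 0.1 and the Stat3 targets have the highest median, 0.76, while the growth cone proteins have the lowest, -0.12.

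The growth cone and cytoskeletal proteins that accompany *Gap43* were mostly on the negative side in ISP against Veh, 15 of 20, with a median of -0.12, none called by edgeR or DESeq2, and 1 higher and 3 lower at an unadjusted p under 0.05. The neuronal stathmin *Stmn3* had 532 ± 32.3 CPM in ISP and 646 ± 81.7 CPM in Veh (-0.28, SE 0.09, adjusted p = 0.269), and the neuronal tubulin *Tubb3* 449 ± 37.7 CPM in ISP and 541 ± 62.9 CPM in Veh (-0.27, SE 0.10, adjusted p = 0.277). With an offset for GC content and length they were -0.07 for *Stmn3* and -0.10 for *Tubb3*, and without ISP 14 and ISP 18 they were -0.21 and -0.17. Against control, *Stmn4* alone of the 20 passed in Veh and rose by 0.41 (SE 0.08, adjusted p = 0.0732), with 277 ± 33.9 CPM in Veh and 209.9 ± 10.7 CPM in control, a call that held in 10 of 15 alternatives and was lost without Veh 2 or without control 21, 36 or 38 (0.33 to 0.40, adjusted p = 0.141 to 0.193) and with all 12 libraries in 1 fit (adjusted p = 0.114).

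Of 15 further injury-induced genes of peripheral neurons that were tested, none passed in ISP against Veh by edgeR, with 3 higher and 4 lower at an unadjusted p under 0.05, and 1 higher and 2 lower by DESeq2. *Gadd45a*, a stress and DNA repair gene, had 12.0 ± 4.03 CPM in ISP, 5.67 ± 1.76 CPM in Veh and 10.4 ± 4.25 CPM in control (1.08, SE 0.27, adjusted p = 0.261, DESeq2 0.0247 in ISP against Veh, and 0.96 without ISP 14 and ISP 18). The neuropeptide *Npy* had 72.5 ± 10.0 CPM in ISP and 95.3 ± 11.4 CPM in Veh (-0.39, SE 0.11, adjusted p = 0.261). For Veh against control 1 of 15 passed, *Cd44*, a matrix receptor of reactive glia and leukocytes, which rose by 1.98 (SE 0.43, adjusted p = 0.0746). The *Cd44* call held in 9 of 15 alternatives and was lost without Veh 2 or 10 or without control 21, 36 or 38 (1.52 to 2.10, adjusted p = 0.128 to 0.196) and with all 12 libraries in 1 fit (adjusted p = 0.187). *Ecel1*, an endopeptidase of injured neurons, had 3.17 ± 1.79 CPM in Veh and 1.06 ± 0.514 CPM in control (1.61, SE 0.46, adjusted p = 0.118, DESeq2 0.0206). Against control, 3 of 15 rose in ISP, *Cd44*, *Ecel1* (1.89, SE 0.41) and *Csrp1* (0.43, SE 0.09), beside 6.74% of all tested genes. The other 14 small proline-rich genes were all in the table and none had enough reads to be tested, 11 of them without a read in any library.

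Among 21 intrinsic brakes on axon growth and members of the DLK and mTOR pathways, none passed in ISP against Veh by edgeR or DESeq2. An unadjusted p under 0.05 was found for 2, both higher in ISP, where 15.3% of all tested genes had one. Of the 21, 1 passed in Veh against control, *Rock2*, a kinase that takes part in growth cone collapse. It fell by 0.42 (SE 0.07, adjusted p = 0.0464), with 205 ± 10.1 CPM in Veh and 278 ± 21.4 CPM in control, and the call held in 10 of 15 alternatives. It was lost without Veh 2 or without control 21 or 36 (-0.45 to -0.38, adjusted p = 0.106 to 0.119), with all 12 libraries in 1 fit (adjusted p = 0.111) and with the offset for GC content and length (-0.21, adjusted p = 0.224).

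The genes whose levels over the 12 libraries were most like each member (Pearson's r of log2(CPM + 0.5) among 14105 genes with a median of at least 10 counts) are given as a description, since the libraries share groups and depth. For *Stat3* they included *Selenop* (r = 0.963) and the astrocyte endothelin receptor *Ednrb* (0.954). For *Atf3* they were *Syngr2* (0.960), *Npc2* (0.953) and *Ifi27* (0.953), and for *Socs3* the antigen-peptide transporter *Tap1* (0.930), *Rbms2* (0.927) and *Scara3* (0.923). *Gap43* was most like *Klhl22* (0.960), *Tcf25* (0.949) and *Ssbp3* (0.947), and among those most like *Sox11* were *Tmod1* (0.912) and *Col5a1* (0.898). For the 3 Krüppel-like factors, *Klf6*, *Klf7* and *Klf4*, the highest values were 0.903 with *Gmnn*, 0.927 with *Pus7* and 0.915 with *Slc2a4rg-ps*.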

How the data were processed

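RNA of punched peri-infarct cortex was enriched with oligo(dT), and Novogene prepared the libraries and sequenced them. The authors used HISAT2 on mm10, HTSeq with default settings for counting, and DESeq2 for testing, and the sources used here name no versions. What was deposited is 1 table of raw, whole-number read counts by gene symbol. Counts were compared in R 4.3.3 with edgeR 4.0.16 (filterByExpr, TMM, glmQLFit, glmQLFTest) on the 8 libraries of each comparison, with p-values adjusted over all tested genes and called under 0.1. SEs were taken from the F statistic, and 95% intervals from the SE and the t distribution with the degrees of freedom of the fit. Single genes were also compared by an exact two-sided permutation test of log2(CPM + 0.5) over 70 splits, whose smallest p is 0.0286. Of the symbols, 24373 were matched in GENCODE M21 (GRCm38) for positions, exon length and GC content. Alternatives were DESeq2 1.42.0 size factors and Wald test, limma-voom 3.58.1, other filters, 1 fit of all 12 libraries, an offset for GC content and length, and left-out libraries. Within groups, library pairs differed beyond sampling noise (chi-square per degree of freedom 11.1 to 50.9). The scripts were tested on simulated data.

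The members and lists were chosen with earlier results of these data known. From each related list, genes with up to the 4 smallest unadjusted p-values in ISP against Veh and in Veh against control are named, and other list genes, such as those that passed in ISP against control, *Sox4* and *Stat5a*, were chosen after their values were seen. Not every gene the rule allows is printed, and some items are not reported here. The most similar genes are the 3 with the highest Pearson's r per member, leaving out predicted genes. List counts and medians carry no set test. Intervals of pooled reads cover counting error only.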

Additional observations from a re-analysis of the deposited data

Results flagged for a closer look

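In 3 of the 26 groups of 4 libraries examined, 1 library stood far from the other 3 of its group, where chance gives about 1 in 20. *Atf3* was at 1.92 CPM in Veh 6, with the next library of the group at 1.12 CPM. *Sox11* was at 17.8 CPM in ISP 18, with the next at 10.4 CPM. *Sox11* was at 11.6 CPM in control 21, with the next at 7.97 CPM.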

How the results depend on the processing

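No paired analysis was possible because the groups share no replicate number. In ISP against Veh the count of genes called was 0, with 405 by DESeq2 (1 member) and 0 to 72 when 1 library was left out (72 without Veh 6, 2 without ISP 12, with 0 members each time). In Veh against control it was 337, with 510 with no filter, 1133 by DESeq2, 28 with all 12 libraries in 1 fit and 18 at an adjusted p of 0.05. It was 0 (without control 21) to 461 (without control 19) when 1 library was left out. The 1 member called there, *Atf3*, was not called in the fit of 12 libraries (2.20) or with the GC and length offset (2.13). Nor was it called at an adjusted p of 0.05 or without any 1 library, with 0 members called each time. Requiring 10 or more reads in each library removed *Atf3* before testing, since control 21 had 1 read. That setting tested 7 members, called 0 and says nothing about *Atf3*. In ISP against control 1547 genes were called, with 691 at an adjusted p of 0.05, 420 (without ISP 14) to 2283 (without ISP 16) when 1 library was left out, and 90 without ISP 14 and ISP 18, where 0 members were called. Members called there were 2 to 3 when 1 library was left out.

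The sign changed for these values. Without ISP 14 and ISP 18, ISP against Veh gave -0.42 for *Atf3*, -0.33 for *Socs3*, -0.45 for *Osmr* and -1.08 for *Lcn2*, and ISP against control gave 0.11 for *Gap43* and 0.074 for *Klf4*. Of values near 0, leaving out 1 library gave -0.068 to 0.049 for *Klf6* and -0.12 to 0.26 for *Klf4* in ISP against Veh, -0.070 to 0.17 for *Sox11* and -0.10 to 0.021 for *Klf6* in Veh against control, and -0.11 to 0.010 for *Klf6*, -0.22 to 0.077 for *Klf7* and -0.28 to 0.10 for *Klf4* in ISP against control. *Klf6* in ISP against Veh was 0.0078 with limma-voom, *Sox11* in Veh against control was -0.0027 with DESeq2 size factors, -0.0022 with DESeq2 and -0.0067 with 12 libraries, and the offset gave 0.016 for *Klf6* in Veh against control and 0.034 for *Jund* in ISP against Veh. Beyond fewer libraries or genes in a fit, the cause was not tested. Of the members' values under the alternatives, 326 kept direction and side of the threshold, 27 changed sign, 20 lost a call and 1 gained one. Depth limits *Atf3* in control (1 to 11 reads per library) and *Sprr1a* (0 to 8).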
